A study of Mus musculus with 32 samples.

Results

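The mRNAs of the transcription machinery were measured in the soma and in the dendrites of 16 single mouse hippocampal neurons. The genes were taken by symbol from the table of read counts on 3′UTRs: those of RNA polymerase I, II and III (Polr1, Polr2, Polr3), the Mediator complex (Med), the TATA-binding protein associated factors (Taf) and the general transcription factors (Gtf2, Gtf3), without genes marked as pseudogenes. The choice used no measured value and gave 104 of the 44081 genes in the table. All neurons came from the hippocampus of C57BL/6 mice at embryonic day 18 and had grown for 15 days in culture, and the labels name no treatment or engineered allele in either group. The soma and the dendrites of each neuron were drawn into separate tubes, so the 16 Dendrite and 16 Soma libraries form 16 pairs. The aRNA method, in which poly-adenylated RNA is copied linearly by in vitro transcription, was run for 3 rounds on neurons 1, 2, 3 and 4. The other 12 had 2 rounds, and both compartments of a neuron were treated alike. The labels do not say which neurons shared a culture or a mouse, so every p-value below describes the spread between these 16 neurons. These are cultured embryonic neurons, and the dendrites were cut from the cell body before either was collected.

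RNA polymerase II transcribes protein-coding genes. It is placed at promoters by TFIID, which is built from TBP and the TAF proteins, and by TFIIA, TFIIB, TFIIE, TFIIF and TFIIH, while Mediator, with its head, middle, tail and kinase modules, carries signals from enhancer-bound activators to the polymerase. RNA polymerase I makes ribosomal RNA, RNA polymerase III makes transfer RNA and other small RNAs with the help of TFIIIA and TFIIIC, and several small subunits are common to more than 1 of these enzymes. These proteins act mainly in the nucleus, which lies in the soma. A dendrite has no nucleus but holds ribosomes, and many mRNAs are found there.

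Dendrite libraries held between 646521 and 6954420 reads on 3′UTRs, and soma libraries between 925525 and 21169974. CPM stands for the reads of a gene in 1e+06 reads of its library, here after TMM scaling, which adjusts for the make-up of each library. Before that scaling, a count of 0 allowed up to 4.64 CPM in the shallowest dendrite library and up to 0.431 in the deepest, a limit set at 3 reads that covers counting error only, since the reads carry no molecular identifiers. Mitochondrially encoded genes took 15.3% of dendrite reads and 2.02% of soma reads on average. The dendrites of neurons 15 and 16 stood apart, with 1570 and 2485 genes at 10 or more reads and 35.8% and 32.4% mitochondrial reads, and the calls are also given without them. Of the 5 pyramidal neuron markers, Map2 had reads in 16 dendrites and 16 somas, Grin1 in 15 and 16, Camk2a in 13 and 14, Slc17a7 in 13 and 13, and Neurod6 in 11 and 11, and their summed level was 395 to 6916 CPM in dendrites and 102 to 2423 in somas. The inhibitory markers Gad1 and Gad2 had reads in all 32 libraries, and the 5 interneuron markers summed to 2074 to 11340 CPM in dendrites (median 4502) and 1184 to 19881 in somas (median 10460), with the dendrites higher in 1 of 16 neurons. Slc32a1 had reads in 15 dendrites and 16 somas, Pvalb in 15 and 14, and Sst in 2 and 3. Pvalb had the higher median in dendrites, 108 CPM against 15.4 in somas, while Gad1, Gad2 and Slc32a1 had it in somas. The 6 astrocyte markers summed to between 0 and 846 CPM in dendrites and between 0 and 538 in somas. Their sum was higher in the dendrites in 12 of 16 neurons. Gfap had reads in 6 dendrites and 4 somas, Aqp4 in 11 and 7, and Gja1 in 9 and 3. Aldh1l1 had reads in 5 dendrites and 7 somas, Slc1a3 in 11 and 13, and Aldoc in 12 and 13. The microglial, oligodendrocyte and endothelial lists, of 5 markers each, summed to at most 386, 162 and 135 CPM in dendrites and 8.88, 134 and 129 in somas, with medians of at most 8.30 CPM. They were higher in the dendrites in 8, 10 and 11 neurons, and Cldn5 was at 0 everywhere. The part of these cells in the differences below was not tested.

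Fewer of the transcription machinery mRNAs were detected in dendrites than in the somas they came from. A library was said to detect a gene at 10 or more reads, and the number of detected members ran from 43 to 99 of 104 in somas (median 80.5) and from 4 to 58 in dendrites (median 42). The soma detected more of them in 15 of 16 neurons, with a mean difference, dendrites minus soma, of -39 ± 21.2 genes (SD, n = 16), and only neuron 5 went the other way, with 58 against 54 in the soma. The lowest dendrite counts, 4 and 14, were those of neurons 15 and 16. With the reads of each pair drawn down to equal numbers the difference was -30.4 ± 18.8 genes (SD, n = 16), again in the same direction in 15 of 16 neurons. Split by amplification, it was -39.8 ± 21.9 genes (SD, n = 12) after 2 rounds and -36.5 ± 21.7 genes (SD, n = 4) after 3. Members were also a smaller share of whatever genes a dendrite library detected, at 0.640% ± 0.129 (SD, n = 16) of detected genes against 0.833% ± 0.0797 (SD, n = 16) in somas. These values are descriptions and carry no test, and a smaller amount of dendrite collected cannot be told apart from less RNA in the dendrite.

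**Figure D1:**
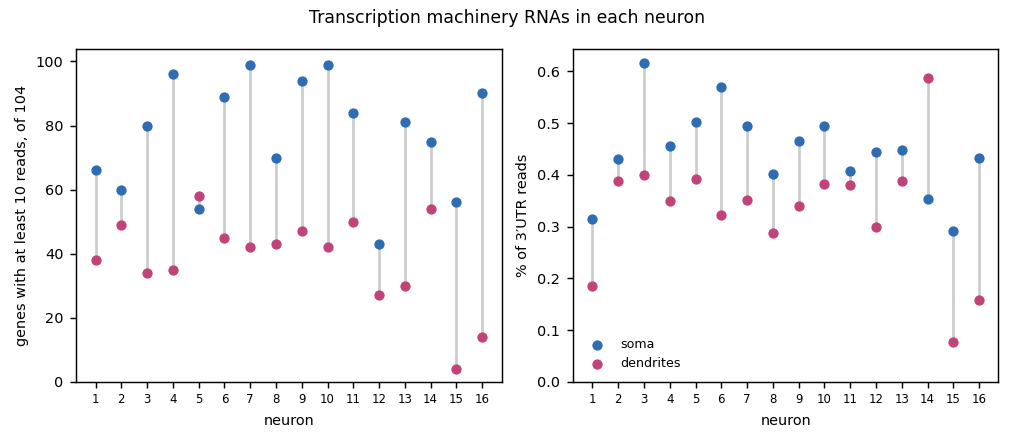
Left, the number of the 104 genes with at least 10 reads in the soma (blue) and the dendrites (pink) of each of the 16 neurons; right, the percentage of 3′UTR reads that fell on these genes. The soma lies above the dendrites in 15 of 16 neurons in both panels, with neuron 5 the exception on the left and neuron 14 on the right.

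As a share of all 3′UTR reads, the 104 genes together took 0.445% ± 0.084 (SD, n = 16) in somas and 0.331% ± 0.117 (SD, n = 16) in dendrites. The soma share was higher in 15 of 16 neurons. Neuron 14 was the exception, where dendrites took 0.587% and the soma 0.354%. The paired difference, dendrites minus soma, was -0.115 ± 0.116 percentage points (SD, n = 16). Without the mitochondrially encoded reads in the total it was -0.0718 ± 0.112 percentage points (SD, n = 16) and the soma was higher in 14 of 16 neurons. With reads counted on exons in place of 3′UTRs it was -0.0346 ± 0.110 percentage points (SD, n = 16), with the soma higher in 13 of 16.

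Gene by gene, 10 of the 90 members that could be tested were higher in somas and 0 were higher in dendrites. These were Polr2a and Polr2b, the largest subunits of RNA polymerase II, Polr1c of polymerases I and III, 6 Mediator subunits (Med20, Med6, Med8, Med7, Med4 and Med30) and the TFIID subunit Taf12. The test was edgeR's quasi-likelihood test, fitted to the 10880 genes that had a read in 16 or more of the 32 libraries, with neuron as a block and a gene called at a Benjamini-Hochberg adjusted p of at most 0.05. Over all genes the same test called 5.71% higher in somas, against 11.1% of the tested members, and 0.827% higher in dendrites, against none of the members. At an unadjusted p under 0.05, 36 of the 90 members were higher in somas and 0 in dendrites, beside 26.7% and 3.55% of all genes. DESeq2 with the same pairing called 64 of the 90 higher in somas, beside 46.2% of all genes. It called 0 members higher in dendrites, beside 463 of 10880 genes. A gene could pass the filter through its somas alone, so these counts describe the genes that passed and not all 104. A gene without a call is not shown to be equal in both compartments. The 14 genes left untested were Gtf2a1l, Gtf3c5, Med12, Med18, Med19, Med26, Polr3g, Polr3gl, Taf1a, Taf1c, Taf6l, Taf7, Taf7l and Taf8.

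The log2 fold change of dendrites over somas had a median of -2.56 over the 90 members, beside -1.49 over all genes tested, and 84 of the 90 (93.3%) were below 0, beside 78.8% of all genes. Taken relative to the median gene the members' median was -1.07, and 66 of 90 members lay below that gene. The scale mattered to the calls. When dendrite libraries were rescaled so that the median gene had a log2 fold change near 0, edgeR called 0 members in either direction, beside 0.827% of all genes higher in somas and 5.42% higher in dendrites. In that fit 10 members were higher in somas and 2 in dendrites at an unadjusted p under 0.05, beside 6.46% and 13.5% of all genes, and the lowest edgeR adjusted p of a member was 0.0535, for Polr2a. Without the pairing of compartments by neuron the members' median was -0.42, beside -0.22 over all genes, and 0 members were called, beside 0.708% of all genes called higher in somas. On exon counts, with 95 members tested, 6 were called higher in somas and 0 in dendrites, beside 2.62% and 1.0% of all genes. All statements below that a gene was higher in somas refer to the TMM scale. Leaving out a neuron at a time gave 2 to 14 calls, while 130 to 990 of the 10880 genes were called higher in somas. There were 14 without neuron 5 (990 genes), 13 without neuron 2 (948), 5 without neuron 1 (320) and 4 without neuron 3 (253). With neuron 7 left out there were 6 (401), and with neuron 12 left out 6 (295). Leaving out neuron 13 gave 4 (244), neuron 15 gave 5 (236) and neuron 16 gave 2 (130). Without neurons 15 and 16 together the calls were Polr2a and Taf12, beside 101 of 10880 genes called higher in somas.

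**Figure D2:**
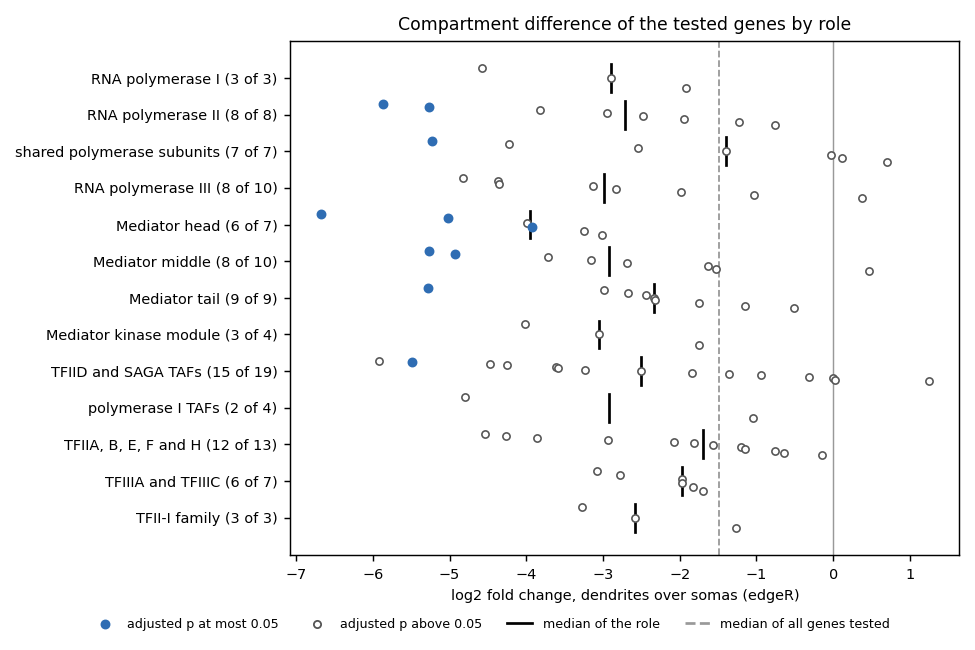
Log2 fold change (dendrites over somas, edgeR) of the 90 tested genes, 1 point per gene, by role, with the number tested of the number of members in brackets. Filled points passed an adjusted p of 0.05, black bars are role medians, the dashed line is the median of all genes tested at -1.49, and all 10 filled points lie at -3.93 or lower.

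RNA polymerase II had 2 of its 8 genes called, both for the catalytic pair of subunits. Polr2a (chromosome 11, 69733997 to 69758637, GRCm38), which carries the C-terminal domain that is phosphorylated through the transcription cycle, had 1.08 to 318 CPM in somas (median 73.2) and 0 to 260 CPM in dendrites (median 0.567). All 16 somas had reads and 6 dendrites had none, while the dendrites of neuron 10 alone reached 260 CPM, so the ranges overlapped and the soma was higher in 14 of 16 neurons. The fitted log2 fold change was -5.87 ± 1.40 (SE; edgeR adjusted p = 0.0137), and it stayed called whichever single neuron was left out. The counts on exons showed a different picture for this gene: a median of 0.974 CPM (without TMM) in somas and 1.14 in dendrites, with a log2 fold change of -0.41 (edgeR adjusted p = 0.827). The exon counts thus held few of the reads that the 3′UTR counts assigned to Polr2a, and the reason was not tested.

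Polr2b (chromosome 5, 77310147 to 77349324), which forms the other face of the active centre, ran from 4.37 to 234 CPM in somas (median 71.8) and from 0 to 92.8 CPM in dendrites (median 1.63). The dendrites of neurons 14, 8 and 5 held the most, at 92.8, 58.9 and 39.4 CPM, within the soma range, 7 others had no reads, and the soma was higher in 15 of 16 neurons. Its log2 fold change was -5.27 ± 1.37 (SE; edgeR adjusted p = 0.0196), and leaving out single neurons ended the call only for neuron 16. On exons it was -3.72 (edgeR adjusted p = 0.053). The other 6 genes specific to the enzyme were not called, with log2 fold changes from -3.82 to -0.76. Polr2g, a subunit of the stalk that holds the emerging RNA, had 160 to 618 CPM in somas (median 238) and 0 to 869 in dendrites (median 164), and its log2 fold change was -1.23 ± 0.82 (SE; edgeR adjusted p = 0.289). Polr2m, a protein that binds the polymerase and makes it dependent on Mediator, had reads in all 32 libraries, from 124 to 1451 CPM in somas (median 371) and from 4.63 to 955 in dendrites (median 229). The compartments overlapped nearly throughout, and its log2 fold change was -0.76 ± 0.58 (SE; edgeR adjusted p = 0.353).

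Among the subunits shared between polymerases the genes spread widely. Polr1c (chromosome 17, 46243920 to 46248054), an assembly subunit of polymerases I and III, had 0 to 92.1 CPM in somas (median 30.5) and 0 to 119 CPM in dendrites (median 0). Of the dendrites 9 had no reads, but those of neurons 14 and 2 exceeded their own somas at 119 and 73.8 CPM. In edgeR the log2 fold change was -5.23 ± 1.47 (SE; edgeR adjusted p = 0.0279), and it was called in 11 of the 16 fits that left out a neuron. Its partner Polr1d behaved differently, with reads in 15 of 16 dendrites, 16.4 to 144 CPM in somas (median 63.0) and 0 to 492 CPM in dendrites (median 85.4). The dendrites were higher in 10 of 16 neurons and the log2 fold change was 0.11 ± 0.87 (SE; edgeR adjusted p = 0.939), although under DESeq2 it was -0.14. The protein products of this pair bind each other in the enzyme, but the difference between their compartment effects was not tested. Polr2l, a small subunit common to the nuclear polymerases, had 5.52 to 87.3 CPM in somas (median 34.7) and 0 to 228 CPM in dendrites (median 46.4). It was higher in the dendrites of 11 of 16 neurons, the lone dendrite library at 0 being that of neuron 15, with a log2 fold change of 0.70 ± 0.87 (SE; edgeR adjusted p = 0.575). The 7 shared subunits had a median of -1.39, close to the -1.49 of all genes.

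The genes particular to RNA polymerase I and RNA polymerase III gave no calls on 3′UTRs at the adjusted level. All 3 polymerase I genes lay below the median gene. Polr1a, its largest subunit, had reads in 8 dendrites and 14 somas and a log2 fold change of -2.90 ± 1.83 (SE; edgeR adjusted p = 0.263), and Polr1e had reads in 9 dendrites and 14 somas and -1.91 ± 1.53 (SE; edgeR adjusted p = 0.376). For Polr1a the dendrites of neurons 13 and 14 held 259 and 155 CPM where their somas held 0.836 and 0.505. The 8 polymerase III genes tested had a median log2 fold change of -2.98. Polr3k, which serves RNA cleavage at termination, had reads in 13 dendrites and all somas and a log2 fold change of -1.98 ± 1.16 (SE; edgeR adjusted p = 0.229). Polr3g and Polr3gl, alternative forms of the same subunit, were too sparse to test.

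**Figure D3:**
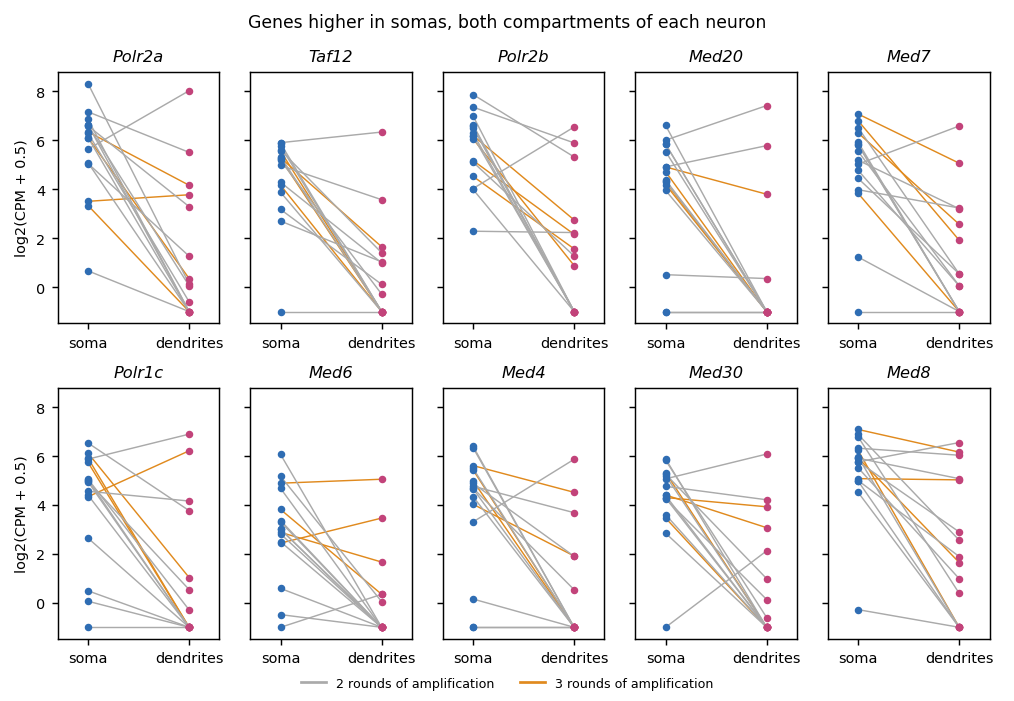
Level of the 10 genes called higher in somas, as log2(CPM + 0.5), in the soma (blue) and dendrites (pink) of each of 16 neurons, with a line joining the compartments of a neuron (orange, 3 rounds of amplification; grey, 2 rounds). Many lines drop to the floor where dendrites had no reads, and in each gene at least 1 dendrite library lies within the soma range.

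The Mediator head had 3 of its 6 tested genes called and a median log2 fold change of -3.96, the lowest of the 13 roles. Med20 (chromosome 17, 47611582 to 47624418), part of the movable jaw of the head, had reads in 14 somas and in only 4 dendrites. Its range was 0 to 97.0 CPM in somas (median 23.0) and 0 to 171 CPM in dendrites (median 0), the dendrites of neurons 11 and 7 being above their somas. The log2 fold change was -6.68 ± 1.79 (SE; edgeR adjusted p = 0.0225), and the call was lost without neuron 3, 13 or 16. Med6 (chromosome 12, 81573557 to 81595008), which joins the head to the middle, had 0 to 66.5 CPM in somas (median 7.55) and 0 to 32.7 CPM in dendrites (median 0). Reads were present in 6 dendrites and 15 somas, and the log2 fold change was -5.02 ± 1.46 (SE; edgeR adjusted p = 0.0327). The call was kept in 7 of the 16 fits without a neuron. The 3 dendrites that exceeded their somas were those of neurons 2, 3 and 5, and neurons 2 and 3 are among those with 3 rounds of amplification. Within the 12 neurons of 2 rounds the log2 fold change of Med6 was -7.28, and within the 4 of 3 rounds it was -0.66. Med8 (chromosome 4, 118409337 to 118415782) had 0.325 to 135 CPM in somas (median 56.9) and 0 to 93.3 CPM in dendrites (median 2.92), and it was higher in the soma of 15 of 16 neurons. Its log2 fold change of -3.93 ± 1.26 (SE; edgeR adjusted p = 0.0485) was at the edge of the threshold and kept its call in 2 of the 16 fits without a neuron. Med22, another head gene, was at -3.24 ± 1.61 (SE; edgeR adjusted p = 0.164).

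In the middle module, Med7 and Med4 were called. Med7 (chromosome 11, 46436925 to 46442721), a hinge between the ends of the module, had 0 to 134 CPM in somas (median 41.1) and 0 to 95.5 CPM in dendrites (median 0.743). The soma was higher in 14 of 16 neurons, neuron 11 was the exception, and the soma and dendrites of neuron 12 had no reads. The log2 fold change came to -4.93 ± 1.32 (SE; edgeR adjusted p = 0.0225). Med4 (chromosome 14, 73510025 to 73518849) had 0 to 83.8 CPM in somas (median 26.0) and 0 to 58.0 CPM in dendrites (median 0), with reads in 14 somas and 6 dendrites, and a log2 fold change of -5.27 ± 1.56 (SE; edgeR adjusted p = 0.0356). Leaving out a neuron kept the Med7 call in 12 fits of 16 and the Med4 call in 6. Med10 was present in every soma, at 77.9 to 461 CPM (median 139), and without reads in 6 dendrites, at 0 to 409 CPM (median 31.0), with a log2 fold change of -3.16 ± 1.16 (SE; edgeR adjusted p = 0.0763). Med14, the backbone that ties the modules together, did not share this direction. It had 1.84 to 162 CPM in somas (median 64.6) and 0 to 817 CPM in dendrites (median 81.9), the highest value from neuron 4, with the dendrites higher in 10 of 16 neurons and a log2 fold change of 0.47 ± 0.94 (SE; edgeR adjusted p = 0.741).

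Of the 9 tail genes, grouped here with Med28 and Med30, 1 was called. Med30 (chromosome 15, 52712408 to 52730564), a subunit found in animals and absent from yeast, had 0 to 58.8 CPM in somas (median 20.6) and 0 to 67.3 CPM in dendrites (median 0.0796). Of the dendrites, 8 had no reads, while that of neuron 10 reached the top of the range. Its log2 fold change was -5.29 ± 1.58 (SE; edgeR adjusted p = 0.0361), kept in 5 of the 16 fits without a neuron. Med16 and Med28 had reads in 12 dendrites and 16 somas each, with log2 fold changes of -2.44 ± 1.43 and -1.15 ± 1.08 (SE; edgeR adjusted p = 0.233 and 0.454). In the kinase module, Med13, which docks the kinase on the core complex, had reads in 15 dendrites, 0.461 to 334 CPM in somas (median 100.5) and 0 to 252 CPM in dendrites (median 70.9). The fitted log2 fold change was -1.74 ± 1.24 (SE; edgeR adjusted p = 0.32). The related Med13l had reads in 10 dendrites, and its log2 fold change was -3.06 ± 1.76 (SE; edgeR adjusted p = 0.223).

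Among the 15 TAF genes of TFIID and SAGA that were tested, Taf12 alone was called. Taf12 (chromosome 4, 132274375 to 132295766), a histone-fold protein found in both complexes, had 0 to 59.3 CPM in somas (median 36.7) and 0 to 80.3 CPM in dendrites (median 0.159). The soma was higher in 14 of 16 neurons, and neuron 8, whose dendrites held 80.3 CPM, was the exception, while neuron 15 had no reads in either compartment. Its log2 fold change was -5.49 ± 1.38 (SE; edgeR adjusted p = 0.0172), it stayed called without any single neuron, and on exons it was -5.14 (edgeR adjusted p = 0.0305). Taf5l and Taf3 had 3′UTR reads in 4 dendrites and 14 somas each. Taf5l, a SAGA subunit, had a log2 fold change of -5.92 ± 2.01 (SE; edgeR adjusted p = 0.0598), and Taf3, a reader of histone methylation at active promoters, had -4.26 ± 1.67 (SE; edgeR adjusted p = 0.0908). On exons, however, reads of Taf3 were found in 13 dendrites (median 11.4 CPM, without TMM) and 15 somas (median 23.6), and the log2 fold change was -0.77 (edgeR adjusted p = 0.721), and the reason for the difference between the counts was not tested. Taf11 had reads in 13 dendrites and 15 somas and a log2 fold change of -2.50 ± 1.22 (SE; edgeR adjusted p = 0.159).

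Other TAF genes had log2 fold changes near 0 that did not pass the test. Taf13, which pairs with Taf11 in TFIID, had 1.60 to 400.4 CPM in somas (median 91.9) and 0 to 392 CPM in dendrites (median 95.1), with a log2 fold change of -0.31 ± 0.90 (SE; edgeR adjusted p = 0.822). Taf10, a histone-fold subunit that TFIID and SAGA share, had reads in all 32 libraries, at 10.6 to 159.5 CPM in somas (median 73.1) and 8.16 to 205 CPM in dendrites (median 64.0). In edgeR the log2 fold change was 0.02 ± 0.77 (SE; edgeR adjusted p = 0.988), the dendrites being higher in 10 of 16 neurons, and it was slightly below 0 under DESeq2, at -0.23. Taf4b was the member with the highest log2 fold change, 1.25 (edgeR adjusted p = 0.593), but it had reads in only 8 dendrites and 8 somas. It was picked for mention after its values were seen. Of the TAFs that serve RNA polymerase I, Taf1b was at -4.80 ± 1.90 (SE; edgeR adjusted p = 0.0952) and Taf1d at -1.04 ± 1.56 (SE; edgeR adjusted p = 0.648).

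The basal factors gave no call. The 12 tested genes of TFIIA, TFIIB, TFIIE, TFIIF and TFIIH had a median log2 fold change of -1.69, against -1.49 for all genes. Gtf2h5, the smallest subunit of TFIIH and a factor in DNA repair, had 40.4 to 451 CPM in somas (median 212) and 0 to 566 CPM in dendrites (median 238). Its only dendrites without reads were those of neurons 15 and 16, the dendrites were higher in 9 of 16 neurons, and its log2 fold change of -0.15 ± 0.71 (SE; edgeR adjusted p = 0.897) was 0.39 when those neurons were left out. Gtf2a2, the small subunit of TFIIA, had 1.38 to 149.6 CPM in somas (median 77.7) and 0 to 266 CPM in dendrites (median 19.7), with a log2 fold change of -2.08 ± 1.19 (SE; edgeR adjusted p = 0.222). In TFIIIC, which recognises transfer RNA genes, Gtf3c2 was at -3.08 ± 1.48 and Gtf3c3 at -2.78 ± 1.35 (SE; edgeR adjusted p = 0.151 and 0.157), and the 3′UTR of Gtf3c2 overlaps an exon of Gm29609 on the same strand. In the TFII-I family, Gtf2i had reads in 14 dendrites and 15 somas and was at -1.26 ± 1.00 (SE; edgeR adjusted p = 0.373), and Gtf2ird1 was at -2.58 ± 1.60 (SE; edgeR adjusted p = 0.255). These genes are close paralogs with Gtf2ird2, so reads may be split among them.

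Presence in dendrites was looked at apart from level. A gene was taken as present throughout when at least 15 of 16 dendrites had a read. That held for 8 members, which are 8.89% of the tested members beside 17.1% of all genes tested. Med13, Polr1d, Polr2g, Polr2l, Polr2m, Taf10 and Taf13 were among them. Of these 7, Polr2m and Taf10 had reads in all 16 dendrites, and Polr2l, Polr2m and Taf10 had 10 or more reads in at least 15. In the 5 with a single dendrite library at 0, that library was from neuron 15 for Med13, Polr2l and Taf13 and from neuron 12 for Polr1d and Polr2g. Of the named genes, 3 had log2 fold changes above 0 (Polr1d, Polr2l and Taf10), 4 below (Med13, Polr2g, Polr2m and Taf13), and none was called in either direction. They come from different complexes: 3 are subunits of the polymerases that sit outside the catalytic pair, 1 binds polymerase II, 2 are histone-fold proteins of TFIID and 1 anchors the Mediator kinase.

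**Figure D4:**
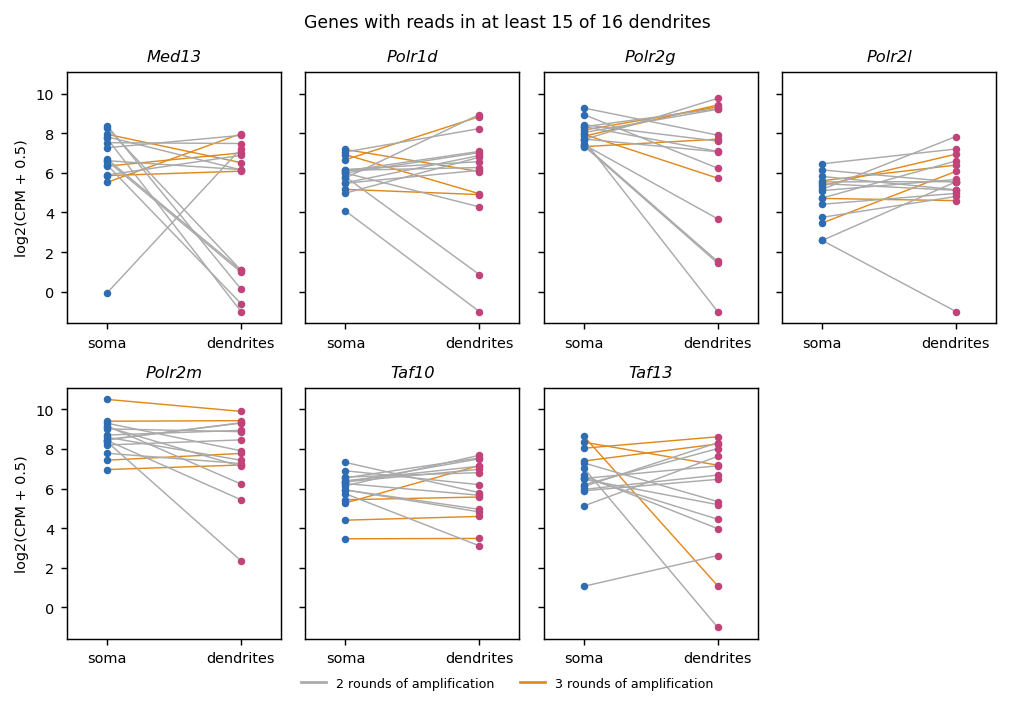
Level of 7 genes with reads in at least 15 of 16 dendrites, as log2(CPM + 0.5), in the soma (blue) and dendrites (pink) of each neuron, with lines joining the compartments of a neuron (orange, 3 rounds of amplification; grey, 2 rounds). Most lines of Polr2l and Taf10 run near level or upwards, and in Med13 and Polr2g some dendrites lie at the soma level and others far below it.

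At the other end, Med20, Taf3 and Taf5l had 3′UTR reads in 4 dendrites each, the fewest of any tested member. Across all 104 genes the somas with reads outnumbered the dendrites with reads in 98, were equal in number in 5 and were fewer in 1, Taf7l, which had reads in 2 somas and 5 dendrites at no more than 0.987 CPM in a soma. This count was not made over all genes. The median number of libraries with reads was 10 dendrites and 15 somas over the members, beside 11 and 15 over all genes tested. Gtf2a1l, a paralog of a TFIIA subunit known from germ cells, had no read in any library. Both were picked for mention after their values were seen.

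**Figure D5:**
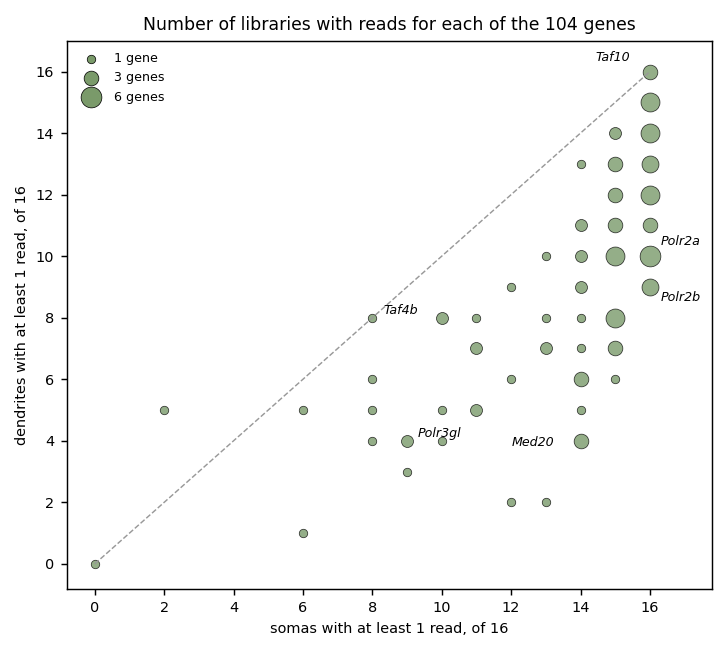
Number of somas (x axis) and of dendrites (y axis) with at least 1 read, of 16 each, for all 104 genes, with larger points where several genes coincide and a dashed line where the numbers are equal. Polr2a and Polr2b lie at the right edge with reads in 16 somas and in 10 and 9 dendrites, Taf10 sits in the top corner, and 1 point lies above the line.

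The choice of 3′ end was compared between compartments for members with more than 1 counted 3′ end. For each gene the reads on its 2 most used ends were taken, each end being a window of 500 nt, and the fraction on the higher-numbered end was compared within neurons by an exact signed-rank test. Positions of the ends are not used here, so the fraction does not say which end is nearer the stop codon. Of 28 members tested, 3 had p under 0.1, or 10.7%, beside 8.4% of the 3522 genes tested, and after adjustment over all genes none of the 3522 passed. Taf10 showed the largest shift of the 3. In its dendrites the higher-numbered end took a fraction of 0.969 ± 0.0754 (SD, n = 15) of the reads, and in its somas 0.822 ± 0.274 (SD, n = 15). The paired difference was 0.147 ± 0.250 (SD, n = 15 neurons), positive in 8 neurons, negative in 1 and 0 in 6 (exact signed-rank test, two-sided, p = 0.0391, adjusted p = 0.953). The shift was carried by a few somas, among them neuron 11, with 987 reads on the lower-numbered end and 58 on the other, and neuron 9, with 1315 and 1263. For Polr2m (exact signed-rank p = 0.0313, adjusted p = 0.91) the mean difference was -0.00058, and for Taf11 (exact signed-rank p = 0.0625, adjusted p = 0.953) it was -0.0107, so their reads lay almost wholly on the lower-numbered end in both compartments. Within the neurons of 2 rounds of amplification alone, 2 of 20 members had p under 0.1, beside 8.01% of the 2772 genes tested. They were Polr2m and Med14 (exact signed-rank p = 0.0313 and 0.0625), and Taf10 and Taf11 did not pass (exact signed-rank p = 0.109 and 0.125). For Med14 the mean difference was 0.0800 in that subset, but -0.0127 over its 12 neurons of both kinds (exact signed-rank p = 0.547).

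The rounds of amplification are the batch that the labels give, and the compartment effect was tested for a difference between 2 and 3 rounds. In edgeR's test of that interaction 0 of 90 members passed after adjustment, as did 0 of 10880 genes, and at an unadjusted p under 0.05 there were 2 members (Med6 and Taf5l) and 288 genes. Taf5l had a log2 fold change of -8.51 within the neurons of 2 rounds and of -0.56 within those of 3. Within the 12 neurons of 2 rounds 4 of 90 members were called higher in somas (Med6, Polr2a, Polr2b and Taf5l), beside 3.25% of all genes. Within the 4 neurons of 3 rounds edgeR called 0 members and 1 of 10869 genes (0.0092%) higher in somas, and the members' median log2 fold change was -1.06, beside -0.62 over all genes. At an unadjusted p under 0.05 there were 9 members, all higher in somas, beside 5.04% of all genes.

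Transcript length was set beside the compartment difference as a description. Across 89 members with annotated lengths the log2 fold change had a Spearman correlation of -0.116 with coding length and of 0.117 with 3′UTR length, given as descriptions across genes that share the same 32 libraries. Among all 9114 protein-coding genes tested the correlation with coding length was -0.078. The number of dendrites with reads followed the log2 fold change more closely, at 0.699 over 90 members. Both are computed from the same counts. The called genes ranged in coding length from 534 bases (Med30) to 5910 (Polr2a), and the genes present in at least 15 dendrites from 201 (Polr2l) to 6513 (Med13).

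Other genes of the machinery, whose symbols fall outside the families above, were counted from a list of 56 (TBP, the TFIIH and Mediator kinases, factors of polymerases I and III, SNAPC, elongation factors and polymerase assembly factors), of which 51 were tested. By edgeR 6 of 51 were called higher in somas, beside 5.71% of all genes, and 0 in dendrites, with a median log2 fold change of -2.24. At an unadjusted p under 0.05 there were 21 of 51 higher in somas, beside 26.7% of all genes, and 0 in dendrites. The 6 were Snapc1 and Snapc3, subunits of the complex that starts small nuclear RNA genes (-6.07 and -4.32), Znrd1 of polymerase I (-6.46), Rpap3, which helps to assemble polymerases (-5.98), and the elongation factors Ell2 and Ccnt2 (-4.65 and -4.52). They were named because they passed the test.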

How the data were processed

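Soma and dendrite RNA of 16 single neurons (32 libraries) was measured by RNA sequencing after aRNA amplification. The deposited values are read counts without normalization. According to the study's methods, the authors removed adapters and poly-A stretches, mapped reads to mm10 with STAR (version 2.4.0 in the submitters' processing notes) and counted uniquely mapped reads with VERSE, by strand, on the 3′UTRs. The deposited tables hold counts on the combined 3′UTR of each gene, on 74532 single 3′ ends and on the exons of 23453 genes. The settings and annotation of the exon counts are not given in the sources used here. Counting at the 3′ end suits aRNA libraries, whose reads fall mostly there, but reads where 3′UTRs of neighbouring genes on a strand overlap cannot be given to 1 gene with certainty.

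From the 3′UTR counts, dendrites were compared with somas in edgeR 4.0.16 (R 4.3.3, TMM, robust quasi-likelihood, neuron as a block, at least 1 read in at least 16 libraries), and in DESeq2 1.42.0 as an alternative. SE is the log2 fold change divided by the square root of F. Other values used Python 3.11.15, NumPy 2.4.6, pandas 2.3.3 and SciPy 1.17.1. The edgeR fit and the signed-rank test of isoforms were checked on simulated data. Isoforms were to be compared as distal fractions. The higher-numbered end was used instead, because the counts carry no positions. Coordinates and lengths are from GENCODE M21 on GRCm38, the same assembly as mm10, where 103 of 104 symbols matched. Modules and roles were assigned from general knowledge of the complexes.

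Pairs come from the cells. After the mean of each compartment was removed, dendrites and soma correlated at 0.0859 ± 0.0766 (SD, n = 16) within a neuron and at -0.00532 ± 0.0528 (SD, n = 240) between neurons, and 0 of 120 library pairs within a compartment had identical counts.

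Genes were named by a rule: each called gene, up to 5 per direction with the lowest p that moved the same way in at least 80% of neurons with reads, the 2 with the highest mean CPM in each of 13 roles, Polr2a, members at p under 0.1 in the isoform test and the 3 with most dendrites at 0. The members, lists and rules were chosen with earlier results of these data known. Alternatives covered the test, scaling, filter, exon counts, the block, rounds of amplification, equal read numbers, each neuron left out and, chosen after seeing the data, neurons 15 and 16 left out. Spike-in counts and sequences were not used here, and 1 gene that the rule named is not reported here.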

Additional observations from a re-analysis of the deposited data

How the results depend on the processing

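The number of members higher in dendrites was 0 in every fit. Over all genes that direction had 90 of 10880 genes with the main settings and 4 of 10869 within 3 rounds. It had 463 of 10880 with DESeq2 and 590 of 10880 when rescaled to the median gene. The number of members higher in somas was 10 with the main settings, beside 621 of 10880 genes. With DESeq2 it was 64 (5029 of 10880 genes) and on exon counts 6 (257 of 9804). It was 4 within 2 rounds (354 of 10880) and 2 with no filter beyond 1 read (143 of 31102). Without neurons 15 and 16 it was 2 (101 of 10880). It was 0 when rescaled to the median gene (90 of 10880) and 0 within 3 rounds (1 of 10869). With no replicate block, where the neuron pairing was dropped, it was also 0 (77 of 10880). Leaving out each neuron in turn gave 2 to 14, beside 130 to 990 of 10880 genes. The members' median log2 fold change of -2.56 was -1.09 when rescaled, -0.42 with no replicate block and -1.06 within 3 rounds. Relative to the median gene the members' median moved from -1.07 to -2.43 with no filter. It moved to -0.66 at 10 reads in 16 libraries, -0.49 on exon counts, -0.44 within 3 rounds and -0.20 with no replicate block. Members with reads in at least 15 dendrites numbered 8 (8.89% of the tested members beside 17.1% of all genes tested). They numbered 3 at 10 reads (3.33% beside 6.99%), 15 at 14 dendrites (16.7% beside 26.5%) and 3 at all 16 (3.33% beside 8.01%).

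Of 1057 log2 fold changes of 38 named genes under alternatives, 865 kept their direction and side of the threshold, 122 lost and 27 gained a call, and 43 changed sign, all in genes that were not called. Rescaled to the median gene, Gtf2h5 was 1.39, Gtf2i 0.27, Med28 0.38, Polr2m 0.78, Polr2g 0.31, Taf13 1.22 and Taf1d 0.46. Within 3 rounds, Gtf2h5 was 0.29, Med13 0.68, Med16 1.04, Polr1d -0.17, Polr2m 0.19, Polr2g 0.56 and Polr3k 0.10. With no replicate block, Gtf2h5 was 0.24, Med13l 0.17, Polr1a 0.70 and Polr2g 0.016. At 10 reads in 16 libraries, Gtf2h5 was 0.16 and Taf13 0.028, and at equal read numbers 0.26 and 0.095. Gtf2h5 was 0.21 on exons and 0.39 without neurons 15 and 16. With DESeq2, Polr1d was -0.14 and Taf10 -0.23, and with its size factors in edgeR -0.15 and -0.24. Taf10 was -0.089 with no filter and -0.17 within 2 rounds. Leaving out single neurons, Gtf2h5 ran from -0.30 to 0.32, Polr1d from -0.096 to 0.64, Taf13 from -0.52 to 0.23 and Taf10 from -0.064 to 0.44. The cause was not tested. The 10 called genes had no reads in 5 to 12 of the 16 dendrites.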

Other observations

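Counts on exons, used above as an alternative, called 6 of 95 members higher in somas (beside 2.62% of 9804 genes) and 0 in dendrites (beside 1.0%) with edgeR: Med20, Polr1c and Taf12, which the 3′UTR counts also called, and Med19, Med31 and Polr1e, which they did not. Med19 had too few 3′UTR reads to be tested, with reads in 1 dendrite library and 6 somas, and its exon log2 fold change was -4.57 ± 1.35 (SE; edgeR adjusted p = 0.0349). Polr1e was at -5.86 ± 1.84 (SE; edgeR adjusted p = 0.0461) on exons and at -1.91 on 3′UTRs. Med31 was at -5.68 ± 1.82 (SE; edgeR adjusted p = 0.05) on exons and at -3.72 on 3′UTRs. These genes were picked for mention after their values were seen, and the reason for the differences between the counts was not tested.

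Among the 14 genes too sparse to test on 3′UTRs, Med18, the partner of Med20 in the Mediator head, had reads in 13 somas and 2 dendrites, and Taf7, a TFIID subunit, in 12 somas and 2 dendrites, at up to 17.5 and 31.5 CPM in a soma. Both were picked after their values were seen.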
